A study of Mus musculus with 26 samples.

Results

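The genes described here are the Spata (spermatogenesis associated) and Tex (testis expressed) genes, 2 naming series that were given to genes first noticed in the testis. Members were taken by symbol, as Spata or Tex followed by a number, with or without further letters; 2 of the 67 symbols of that form were left out by rule, which leaves 65 members, 30 Spata and 35 Tex, of 24682 gene symbols counted. The names reflect how the genes were found and not a shared sequence, so the members span proteins of meiosis, of the sperm head and tail, and of tissues outside the testis. RNA was sequenced from whole testis of C57BL/6 mice at postnatal day 21 and from sorted germ cells. In the Nkapl set, 2 testes of mice with a knockout of Nkapl were compared with 3 wild-type testes. In the Sox30 set, 2 testes of mice with a knockout of Sox30 were compared with 3 wild-type testes. In the TGdel set, 3 testes of mice homozygous for an Nkapl allele called TGdel were compared with 2 wild-type testes, whose titles carry the mark NE, which is not explained; the series title also names a frameshift of NKAPL. The sorted cells were pachytene spermatocytes and round spermatids of Nkapl knockout and of wild-type mice, with 2 libraries in each of the 4 sorted groups at 21 days by their titles, and no strain given for them. No label gives the part of Nkapl or Sox30 that was removed, nor the sorting method. The submitters' design text calls the samples of a group biological triplicates; whether the libraries used here came from separate animals is not stated otherwise, so p-values measure the spread between these libraries.

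Male germ cells pass from dividing spermatogonia through a long meiotic prophase, which includes the pachytene stage, to haploid round spermatids, which then build the acrosome, the tail and the compact sperm head. Many genes for those last steps are first transcribed in late spermatocytes and round spermatids, and Sox30 encodes a transcription factor of the SOX family that is known in mice to be needed for the round spermatid programme. Nkapl is an autosomal, germ cell relative of the X-linked gene Nkap. At postnatal day 21 the mouse testis holds its first round spermatids and no mature sperm.

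Sequencing depth, as total counts per library, spanned 20120729 to 25514132 for Nkapl-set testes, 34167576 to 40010106 for Sox30-set testes, 16469667 to 17822056 for TGdel-set testes and 18155299 to 19569272 for sorted cells. Levels are given as CPM, each library's counts over its own scaled total, with scaling done within a set. Nkapl itself was 60.8 and 57.8 CPM in knockout testes, against 74.9, 79.5 and 79.9 CPM in wild type, and 24.6 and 23.6 CPM in knockout spermatids, against 88.4 and 90.3 CPM in wild type. In TGdel testes Nkapl was 107, 118 and 126 CPM, against 101 and 103 CPM in wild type, higher in all 3 without passing the test (log2 0.20 ± 0.09 SE, adjusted p = 0.328). In spermatocytes it went against the labels, at 127 and 125 CPM in the libraries labelled knockout and 90.1 and 86.0 CPM in those labelled wild type, so every direction drawn in spermatocytes below is by label. Sox30 was 44.7 and 61.5 CPM in its knockout testes, against 77.6, 86.2 and 72.4 CPM in wild type (log2 -0.57 ± 0.15 SE, adjusted p = 0.17). Headings and file records disagree on the sample for 15 of the 18 testis files, and the headings were followed for grouping. With the libraries grouped by file record instead, 0 members were called in any testis set by edgeR; at an unadjusted p under 0.05, 1 was lower and 1 higher in the Nkapl set, 17 lower and 0 higher in the Sox30 set, and 1 lower and 0 higher in the TGdel set. Of all genes, too, 0 were called under that grouping in any testis set, and those with an unadjusted p under 0.05 were not counted. Each testis result below therefore rests on the headings.

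Of the 65 members, 51 were higher in round spermatids than in pachytene spermatocytes of the libraries labelled wild type and 8 were lower, while 6 did not pass the threshold (adjusted p under 0.05; of all genes tested, 41.1% were higher and 36.4% lower). The median log2 fold change of the members was 1.31, against 0.05 for all genes tested. In the libraries labelled knockout 50 members were higher in spermatids and 12 lower (37.7% and 39.3% of all genes tested). Set against the spermatocytes labelled knockout instead, wild-type spermatids were higher for 50 members and lower for 10 (40.3% and 42.2% of all genes tested). Of the 62 calls in the libraries labelled knockout, 49 held with knockout spermatids set against the spermatocytes labelled wild type. The log2 fold change turned in sign for 10 members. Of all 15805 genes tested, 5659 were then higher and 6105 lower. By the labels as given, the 40 members that were higher by a log2 of at least 1 lay between 1.06 for Spata6 and 1.93 for Spata32. Their median was 1.46, and the cut at 1 sets the lower end. Against the spermatocytes labelled knockout, wild-type spermatids were higher by 1.27 for Spata6 and 3.88 for Spata32, so the upper end rests on the labels. Round spermatid markers, by the labels as given, had a median of 1.48, with all 20 of the list higher. Their summed level was 13198 and 13513 CPM in wild-type spermatids and 4828 and 5088 CPM in the spermatocytes labelled wild type, so transcripts of these markers were also counted in the spermatocyte libraries; their part in the members' ratios was not tested.

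Among the 8 members that were lower in spermatids, 3 are known from meiotic or earlier germ cells. Spata22, which acts with MEIOB in meiotic recombination, was 1.23 and 1.73 CPM in wild-type spermatids and 16.2 and 14.7 CPM in spermatocytes labelled wild type (log2 -3.38 ± 0.16 SE, adjusted p = 9.18e-18). Tex101, a germ cell surface protein, was 20.1 and 17.6 CPM in wild-type spermatids and 139 and 150.0 CPM in those spermatocytes. Neither pair of groups overlapped. Tex19.2 (log2 -3.12), Spata13 (-2.10), Tex19.1 (-1.66), Tex30 (-0.93), Spata2 (-0.41) and Spata5 (-0.14) were the other members lower in spermatids. Tex19.1 restrains retrotransposons in germ cells, Spata2 links the deubiquitinase CYLD to its complex and Spata5 is an AAA ATPase of ribosome maturation. Tex15, needed for meiotic recombination, was instead higher in spermatids, at 171 and 188 CPM in wild-type spermatids and 85.5 and 65.4 CPM in spermatocytes labelled wild type (log2 1.25 ± 0.07 SE, adjusted p = 2.62e-15).

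**Figure D1:**
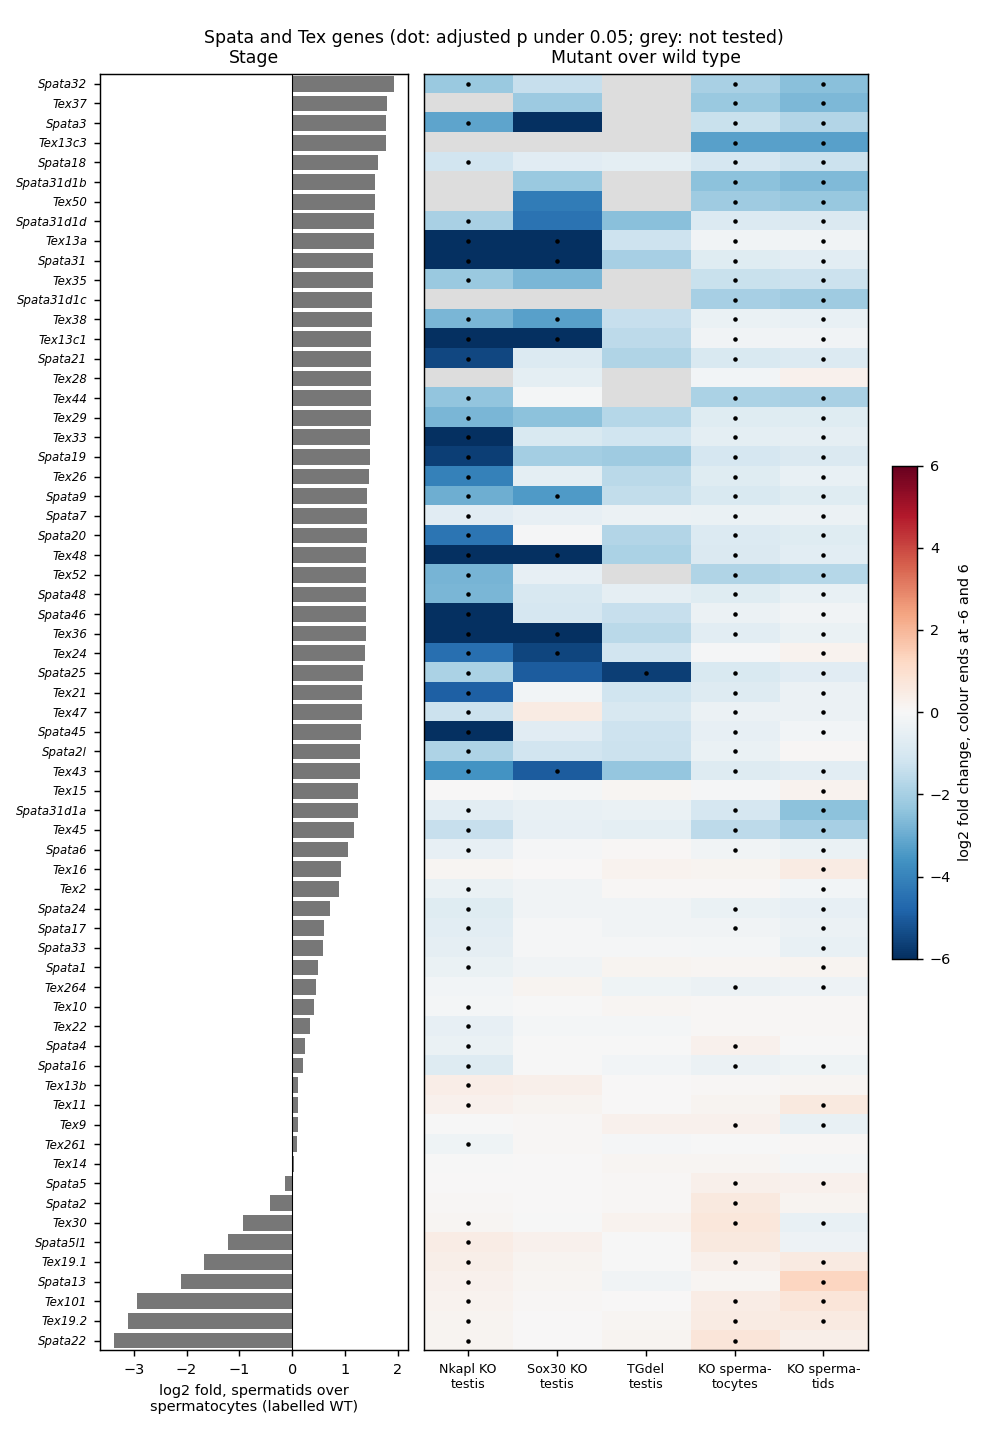
The 65 Spata and Tex genes, ordered by the log2 fold change of spermatids over spermatocytes in the libraries labelled wild type (grey bars, left), with the log2 fold change of mutant over wild type in the 5 comparisons (colours, right). Dots mark adjusted p under 0.05, grey cells were not tested, and members with 3 counts or fewer in the mutant group are coloured by their count ratio; the blue cells crowd among the spermatid-high members in the upper part.

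In Nkapl knockout testis many of the late members were nearly lost. Of 59 members tested, 43 fell and 9 rose (edgeR quasi-likelihood test, Benjamini-Hochberg adjusted p under 0.05); of all 16937 genes tested, 26.1% fell and 17.8% rose. The median log2 fold change was -1.17 over the members and 0.01 over all genes, and 30 of the falls but none of the rises were of a log2 size of at least 1. The share of all genes with changes of that size was not counted. In 44 members every knockout testis lay below every wild-type testis and in 10 above, against 32.9% and 29.5% of all genes tested. The 6 members not tested were too low in whole testis (Spata31d1b, Spata31d1c, Tex13c3, Tex28, Tex37 and Tex50). Because these are whole testes, fewer cells of a type and less RNA per cell cannot be told apart.

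Spata31, of a large family of testis genes (chromosome 13, 64917406 to 64923195 in GRCm38, also called mm10), was 0.0973 and 0.038 CPM in knockout testes, against 23.4, 13.7 and 18.6 CPM in wild type. These are 3 counts in all against 1242, a ratio of wild type over knockout of 289.6 (95% exact counting interval 98.9 to 1406; adjusted p = 2.66e-11). Tex48 had 1 count in the knockout testes and 391 in wild type, a ratio of 273.5 (48.8 to 10830.1; adjusted p = 5.74e-10). The groups stood wholly apart in both genes. The X-linked genes Tex13a and Tex13c1 also had 1 count each in the knockout testes, against 273 and 255 in wild type, where Tex13a was 5.72, 2.87 and 3.67 CPM and Tex13c1 5.22, 2.56 and 3.67 CPM, with ratios of 191 (34.0 to 7570) and 178 (31.7 to 7073). Tex36 (chromosome 7, 133587024 to 133602115) was 0.0486 and 0.19 CPM in knockout testes and 15.8, 11.2 and 14.4 CPM in wild type (log2 -6.69 ± 0.31 SE, adjusted p = 1.18e-11). Spata45 (chromosome 1, 191035909 to 191042942) had 0 counts in both knockout testes, against 8.45, 5.7 and 5.77 CPM in wild type, which is at least 104-fold lower by a floor of 3 counts over the group (adjusted p = 7.42e-10). Intervals and floors cover counting error only.

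Among the 11 members listed as late, for a place in sperm formation, all 10 that were tested fell, between a log2 of -0.51 and the bound of Spata45, with a median of -4.34. The list was chosen with earlier results of these data known, so its count is no separate support. Of all genes higher in spermatids than in spermatocytes labelled wild type, 56.9% fell among those higher by a log2 of at least 1. Among those higher by less, 54.9% fell. Spata46, a protein of the sperm head, was 0.243 and 0.114 CPM in knockout testes, against 17.7, 9.01 and 13.9 CPM in wild type (log2 -6.26 ± 0.40 SE, adjusted p = 6.1e-10). Tex33 was 0.341 and 0.152 CPM in knockout testes, against 25.0, 15.5 and 20.7 CPM in wild type (log2 -6.41 ± 0.31 SE, adjusted p = 1.7e-11). Spata19, a mitochondrial protein of the sperm midpiece, was 0.292 and 0.076 CPM in knockout testes and 10.3, 7.51 and 8.54 CPM in wild type (log2 -5.64 ± 0.32 SE, adjusted p = 1.39e-10). In each of these 3 genes every knockout value lay below every wild-type value. Falls were partial in 4 others. Spata16, known for acrosome formation, was 155 and 153 CPM in knockout testes, against 261, 269.5 and 265 CPM in wild type (log2 -0.78 ± 0.04 SE, adjusted p = 1.3e-11). Spata6, of the sperm connecting piece, was 164 and 154 CPM in knockout testes, against 233, 219 and 224 CPM in wild type (log2 -0.51). Spata18, known for mitochondrial quality control, was 7.59 and 8.02 CPM in knockout testes, against 19.0, 16.4 and 17.4 CPM in wild type (log2 -1.17). These kept more than a small remainder of their wild-type level, with the groups still apart. Spata33, which places calcineurin in the sperm midpiece, was 79.0 and 78.6 CPM in knockout testes, against 121, 108 and 117 CPM in wild type (log2 -0.55). Spata3 was near the detection limit, with 2 counts in knockout testes and 26 in wild type, a ratio of 9.09 (2.28 to 79.1; adjusted p = 0.00992).

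Among the members listed as early, none of the 6 (Tex11, Tex14, Tex15, Tex19.1, Tex101 and Spata22) fell and 4 rose, with a median log2 fold change of 0.18. This list, too, was chosen with earlier results known. By stage in the sorted cells labelled wild type, Tex19.1, Tex101 and Spata22 were higher in spermatocytes. Tex15 was higher in spermatids (log2 1.25), and Tex11 (0.11) and Tex14 (0.03) were not called. Tex101 was 391 and 389 CPM in knockout testes, against 345, 329.8 and 341 CPM in wild type (log2 0.20 ± 0.03 SE, adjusted p = 0.000114). Tex11, an X-linked protein of meiotic synapsis and crossing over, was 44.7 and 46.3 CPM in knockout testes, against 39.0, 37.5 and 37.2 CPM in wild type (log2 0.27 ± 0.05 SE, adjusted p = 0.000727). The groups did not overlap in either gene, but the size of the rise was small. Spata22 (0.16) and Tex19.1 (0.36) rose as well; Spata22 shares 79.7% of its 50-base words with Gm49340, so its counts are uncertain. Tex14, which stabilises the bridges between germ cells, was 167 and 172 CPM in knockout testes and 163, 175 and 173 CPM in wild type, with overlapping groups (log2 -0.01 ± 0.04 SE, adjusted p = 0.924). The largest rises of all were in Spata5l1, a relative of Spata5 at 7.44 and 8.74 CPM in knockout testes, against 5.99, 5.35 and 6.84 CPM in wild type (log2 0.42 ± 0.14 SE, adjusted p = 0.0193), and in the X-linked gene Tex13b at 26.1 and 29.7 CPM in knockout testes, against 21.8, 21.0 and 20.3 CPM in wild type (log2 0.41 ± 0.07 SE, adjusted p = 0.000213). Neither pair of groups overlapped. Spata13 (0.26), Tex19.2 (0.18) and Tex30 (0.13) were the remaining rises. The count of 9 rises became 5 without knockout testis 2, 5 with DESeq2, and 2 when all testis libraries were fitted together.

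The other falls covered a wide range of sizes. Spata21 (-5.45), Tex21 (-4.88), Tex24 (-4.50), Spata20 (-4.39), Tex26 (-4.03) and Tex43 (-3.59) were the deepest on the log2 scale. Spata9, Tex52, Spata48, Tex38, Tex29, Tex44, Tex35 and Spata32 lay between -2.93 and -2.21, and Spata31d1d, Spata25, Spata2l, Tex45 and Tex47 between -1.95 and -1.29. Spata24, Spata17, Spata31d1a, Tex22, Spata1, Spata4 and Tex261 fell by less, between -0.75 and -0.27. The last 4 of these differed between wild-type spermatids and spermatocytes by a log2 of 0.50 or less. Tex9 (-0.02 ± 0.05 SE, adjusted p = 0.754) and Tex16 (0.12 ± 0.06 SE, adjusted p = 0.147) did not pass.

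Some marker lists of the tissue moved beside these members, while others were mixed or hardly called. Of 18 round spermatid markers tested all 18 fell, with a median log2 fold change of -6.31. The sum over the list, which its most abundant genes weigh most, was 416.5 to 435.7 CPM in knockout testes and 769.5 to 883 CPM in wild type. Tnp2, Prm1, Prm2 and Txndc8 were at 0 in both knockout testes. Of 10 spermatogonial markers 8 rose (319.8 to 330.6 CPM in knockout testes and 256 to 264 CPM in wild type), and of 10 Sertoli cell markers 8 rose (1044 to 1073 CPM in knockout testes and 833 to 914 CPM in wild type). Of 11 pachytene spermatocyte markers tested 8 fell and 2 rose (4697 to 4766 CPM in knockout testes and 5622 to 5694 CPM in wild type). Of 12 meiotic prophase markers 3 fell and 2 rose (2880.5 to 2953.6 CPM in knockout testes and 2865.1 to 2951.5 CPM in wild type). Leydig cell and macrophage markers each had 1 of 6 tested lower and 0 higher. Peritubular myoid markers had 1 lower and 3 higher of 6, and of 6 epididymal markers tested 0 were called. The ribosomal RNA transcript Rn45s took 5.29% to 5.53% of counts in knockout testes and 3.96% to 3.97% in wild type. The part of these shifts in the members' falls and rises was not tested.

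Read by stage, 33 of the 34 testable members that were spermatid-high by a log2 of at least 1 fell in Nkapl knockout testis, with a median of -2.86. Of all 2517 genes in that stage class, 56.9% fell, with a median of -0.67. Tex15 was the member of the class that did not pass (0.02 ± 0.04 SE, adjusted p = 0.605). Of the 11 members that were spermatid-high by less, 9 fell, with a median of -0.40 (54.9% of 3276 genes, median -0.20). Of the 8 spermatocyte-high members 6 rose and 0 fell (32.0% and 9.21% of 5742 genes). The stage classes come from other libraries than these testes.

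Of the 6 members that are broadly expressed 3 fell and none rose, with a median log2 fold change of -0.14. Tex264, a receptor for autophagy of the endoplasmic reticulum, was 32.9 and 34.6 CPM in knockout testes and 39.2, 37.6 and 35.8 CPM in wild type, and did not pass (log2 -0.15 ± 0.06 SE, adjusted p = 0.0529). Spata2 (0.09 ± 0.05 SE, adjusted p = 0.197) and Spata5 (0.03 ± 0.04 SE, adjusted p = 0.559) did not pass either. Spata7, known from photoreceptor cilia, fell and was 25.6 and 26.9 CPM in knockout testes, against 44.1, 37.4 and 43.0 CPM in wild type (log2 -0.66 ± 0.07 SE, adjusted p = 8.22e-07). Tex2, a lipid transfer protein of the endoplasmic reticulum, fell and was 366 and 352 CPM in knockout testes, against 482, 463 and 472 CPM in wild type (log2 -0.40 ± 0.04 SE, adjusted p = 5.16e-08). Tex10, a nuclear protein of ribosome assembly, fell by least (-0.13 ± 0.04 SE, adjusted p = 0.00968). Spata7 and Tex2 are also spermatid-high in the sorted cells, by log2 1.42 and 0.90.

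**Figure D2:**
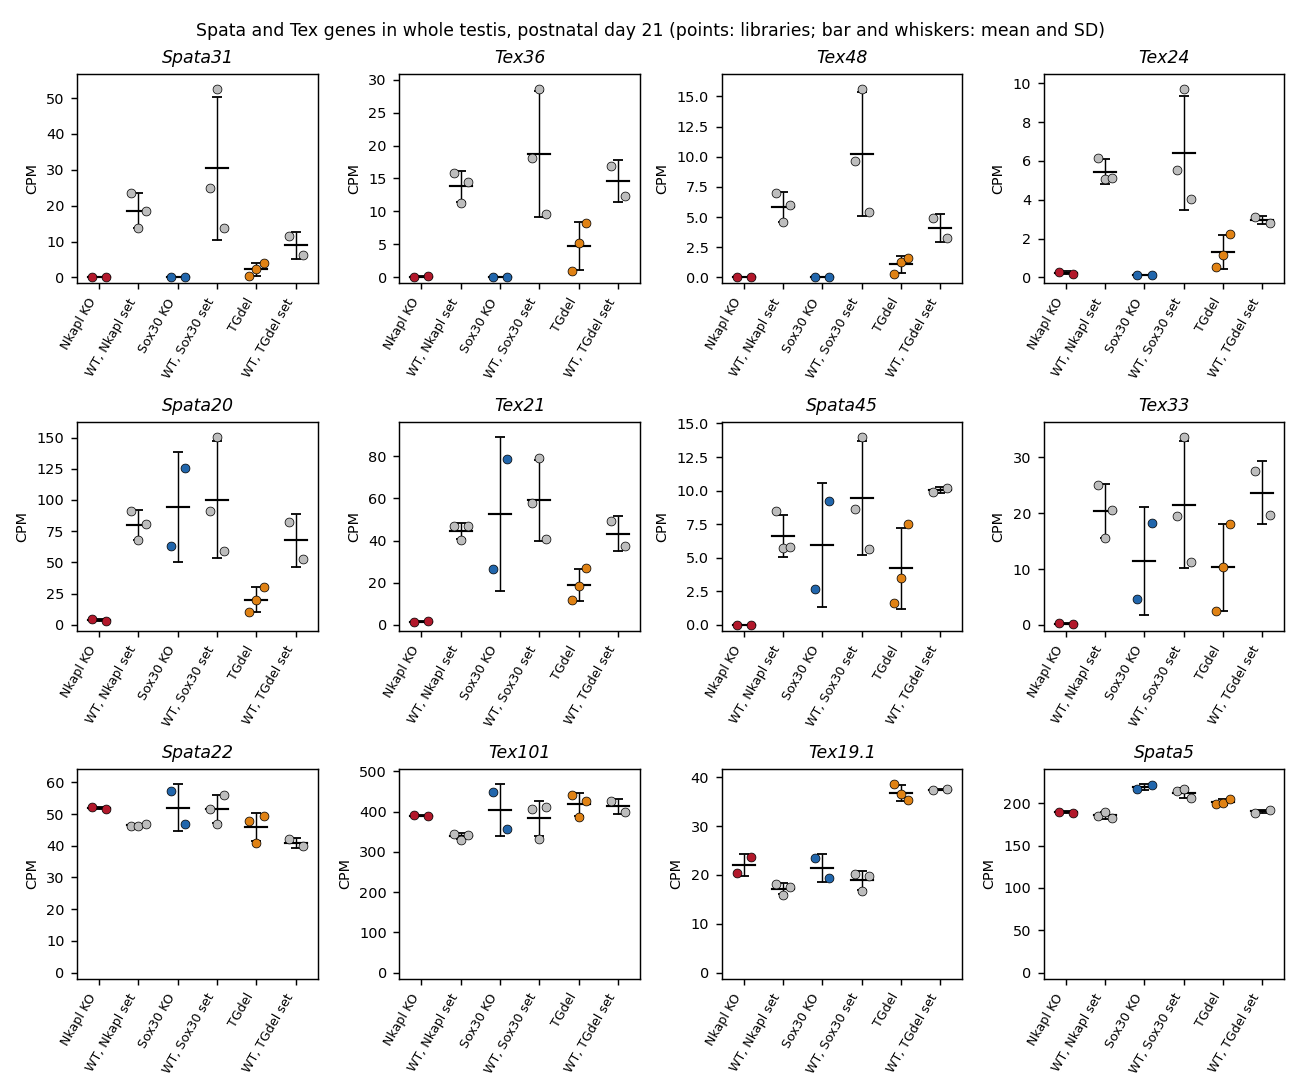
CPM of 12 Spata and Tex genes in every testis library (points), with the mean and SD of each group (bar and whiskers), each mutant left of the wild type of its own set. The top row was at or near 0 in both knockouts, the middle row was far below wild type in the Nkapl knockout and had at least 1 of the 2 Sox30 knockout testes inside the wild-type range, and the bottom row shows members that differed little in every set.

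In Sox30 knockout testis 9 of 63 members tested fell and 0 rose; of all 17816 genes tested, 1.92% fell and 0.505% rose. The members that fell were Spata31, Tex36, Tex48, Tex13c1, Tex13a, Tex24, Tex43, Spata9 and Tex38, and all 9 had also fallen in the Nkapl knockout, where they are 20.9% of the 43 falls. The same overlap over all genes that fell in the Sox30 knockout was not counted. At an unadjusted p under 0.05, 20 members were lower and 0 higher, where 1552 of all genes passed in either direction. DESeq2 called 15 members lower and 0 higher, with 628 of all genes lower and 137 higher. The median log2 fold change was -0.45 over the members and 0.00 over all genes. Without wild-type testis 3, 610 of all genes were lower, against 342 in the main fit. Leaving out either Sox30 knockout testis left 0 calls (14 lower at an unadjusted p under 0.05 without knockout 1, and 30 without knockout 2), and leaving out wild-type testis 3 gave 15.

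Spata31 was 0.0267 and 0.0558 CPM in Sox30 knockout testes, against 24.9, 52.5 and 13.7 CPM in wild type, or 3 counts against 3254, a ratio of 732.6 (250.4 to 3554; adjusted p = 0.00663). Tex36 had 1 count in each Sox30 knockout testis, against 18.1, 28.6 and 9.55 CPM in wild type, a ratio of 684 (189 to 5650.4; adjusted p = 0.00554). Tex48 and Tex13c1 had 1 count each in the knockout testes, with ratios of 746 (134 to 29477) and 436 (77.9 to 17232). The knockout values of these 4 genes were at the floor in both testes, while their wild-type values varied widely between the 3 testes. Tex24 was 0.134 and 0.139 CPM in Sox30 knockout testes and 5.51, 9.71 and 4.02 CPM in wild type (log2 -5.52 ± 0.54 SE, adjusted p = 0.00626); it shares 32.7% of its 50-base words with other loci. Tex38, which acts with a palmitoyltransferase in shaping the sperm head, was 0.668 and 0.892 CPM in Sox30 knockout testes and 8.07, 10.4 and 4.22 CPM in wild type (log2 -3.28 ± 0.44 SE, adjusted p = 0.0125). Tex13a (-6.50), Tex43 (-4.97) and Spata9 (-3.38) completed the list.

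Of the 11 members listed as late only Tex36 was called in the Sox30 knockout, and of the 6 listed as early and the 6 listed as broadly expressed none was. Spata3 had 2 counts in Sox30 knockout testes and 257 in wild type, a ratio of 86.8 (23.8 to 720.5), and missed the threshold (adjusted p = 0.0667). Spata25 (-5.01 ± 1.03 SE, adjusted p = 0.0647) and Spata31d1d (-4.44 ± 0.97 SE, adjusted p = 0.0797) missed it as well, with every knockout value below every wild-type value. In all, 22 of the 63 members tested were lower in both knockout testes than in each wild-type testis and 4 were higher, against 11.1% and 9.85% of all genes tested. The wild-type spread was wide: of 38 spermatid-high members tested, 37 were highest in wild-type testis 2 and 35 lowest in wild-type testis 3, and 31 were lower in Sox30 knockout testis 1 than in knockout 2. The order of the libraries was not counted over all genes of that stage class. Of 20 round spermatid markers 12 fell (561.6 to 805 CPM summed in knockout testes and 768 to 1304 CPM in wild type), with a median log2 fold change of -5.10 over the 20. Of 7 epididymal markers tested 5 rose (54.2 to 87.3 CPM summed over the list in knockout testes and 7.83 to 15.4 CPM in wild type). The part of either shift in the members' values was not tested.

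A further group of spermatid-high members was nearly lost without Nkapl but remained in at least 1 testis without Sox30. Spata20, a thioredoxin-like protein of spermatids (chromosome 11, 94478904 to 94485310), was 4.62 and 3.15 CPM in Nkapl knockout testes, against 91.4, 68.0 and 80.7 CPM in their wild type. In Sox30 knockout testes it was 63.1 and 125 CPM, against 91.5, 151 and 58.9 CPM in theirs. The Nkapl groups stood wholly apart and the Sox30 groups overlapped. Tex21 was 1.31 and 1.67 CPM in Nkapl knockout testes, against 47.1, 40.4 and 46.9 CPM in wild type, and 26.7 and 78.5 CPM in Sox30 knockout testes, against 57.7, 79.1 and 40.8 CPM in wild type. Spata45, at 0 counts without Nkapl, was 2.67 and 9.23 CPM in Sox30 knockout testes and 8.64, 14.0 and 5.65 CPM in wild type. In these genes Sox30 knockout testis 1 was lower than the wild-type testes and knockout testis 2 lay within their range, except that Spata20 in knockout testis 1 was also within it.

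Tested as a difference between the effects, Nkapl minus Sox30, 6 of 63 members passed and all 6 were lower (2.8% of all 17867 genes passed, 2.64% lower and 0.168% higher). They were Spata20 (log2 difference -4.27 ± 0.61 SE, adjusted p = 0.0073), Tex21 (-4.70 ± 0.68 SE, adjusted p = 0.0078), Spata21 (-4.58 ± 0.90 SE, adjusted p = 0.0252), Tex33 (-5.48 ± 1.14 SE, adjusted p = 0.032), Spata46 (-5.25 ± 1.16 SE, adjusted p = 0.0413) and Spata45 (adjusted p = 0.0252). The 2 sets share no library. For the 9 members lost in both knockouts the difference did not pass; in the 4 with more than 3 counts in both knockout groups it lay between 0.47 for Spata9 and 1.38 for Tex43 with SEs of 0.57 to 1.30, which does not show that the effects were alike. The count of 6 was unstable: it was 0 without Nkapl knockout 2 (12 at an unadjusted p under 0.05), 1 without Nkapl knockout 1, 2 without any 1 of the Nkapl-set wild-type testes or Sox30-set wild-type testis 1, 3 without Sox30 knockout 2, 12 without Sox30-set wild-type testis 2 and 17 without Sox30 knockout 1. In those last 2 cases all 6 were still called.

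**Figure D3:**
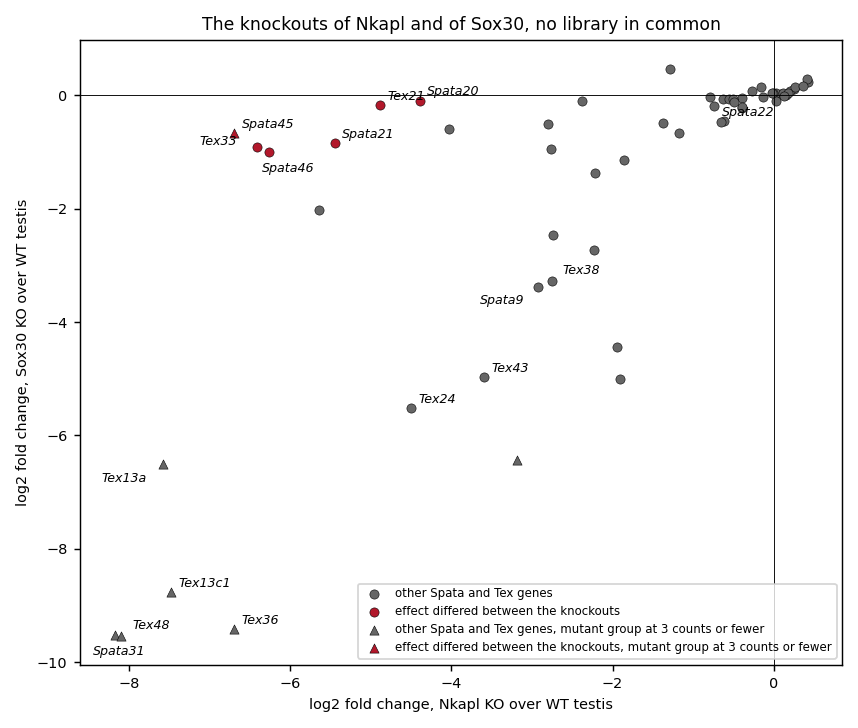
Log2 fold change of each Spata and Tex gene in Nkapl knockout testis (horizontal axis) and in Sox30 knockout testis (vertical axis), both over their own wild type. Triangles mark members with 3 counts or fewer in a mutant group, placed at their count ratio or bound; the red members, whose effects differed in the test, lie between -0.996 and -0.09 for Sox30 and at -4.39 or below for Nkapl, while Spata31, Tex48, Tex36 and Tex13c1 lie low on both axes.

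The upstream sequences of members on either side of that division are shown because Sox30 encodes a SOX factor and the SOX family binds a short core, ACAAT. The 250 bases before the annotated start were taken from RefSeq (GRCm38.p6, the build also called mm10), where 57 members matched, and were searched on both strands for ACAAT, for the RFX core GTTGCC and for the cAMP response element TGACGTCA, which do not overlap by letters. Matches are in capitals, as read 5′ to 3′ on the gene's own strand, where ATTGT and GGCAAC are ACAAT and GTTGCC on the other strand. The first 3 genes fell in both knockouts and the last 2 differed between them. They were taken by no set rule and do not stand for all members on their side: Spata45 and Tex33, whose effects also differed, hold ACAAT.
Spata31, chr13:64917156-64917405, plus strand: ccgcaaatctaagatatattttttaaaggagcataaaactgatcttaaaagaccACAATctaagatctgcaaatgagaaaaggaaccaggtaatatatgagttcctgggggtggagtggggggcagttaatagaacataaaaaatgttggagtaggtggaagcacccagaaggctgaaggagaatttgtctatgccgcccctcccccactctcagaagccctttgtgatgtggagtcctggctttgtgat
Tex36, chr7:133602116-133602365, minus strand: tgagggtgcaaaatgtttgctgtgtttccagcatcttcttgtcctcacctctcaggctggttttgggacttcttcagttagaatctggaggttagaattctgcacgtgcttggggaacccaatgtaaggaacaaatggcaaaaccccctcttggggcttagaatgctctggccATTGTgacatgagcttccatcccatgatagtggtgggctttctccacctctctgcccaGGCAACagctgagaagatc
Tex38, chr4:115781035-115781284, minus strand: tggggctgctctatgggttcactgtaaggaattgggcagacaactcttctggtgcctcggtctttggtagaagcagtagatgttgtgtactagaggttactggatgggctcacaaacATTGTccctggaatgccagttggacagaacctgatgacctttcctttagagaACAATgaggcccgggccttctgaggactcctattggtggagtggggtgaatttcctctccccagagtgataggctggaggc
Spata20, chr11:94485311-94485560, minus strand: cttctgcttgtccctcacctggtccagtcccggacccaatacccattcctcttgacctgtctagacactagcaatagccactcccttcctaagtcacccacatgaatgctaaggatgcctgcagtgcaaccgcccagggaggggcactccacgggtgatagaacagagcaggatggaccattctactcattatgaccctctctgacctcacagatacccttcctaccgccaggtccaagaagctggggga
Spata46, chr1:170308569-170308818, plus strand: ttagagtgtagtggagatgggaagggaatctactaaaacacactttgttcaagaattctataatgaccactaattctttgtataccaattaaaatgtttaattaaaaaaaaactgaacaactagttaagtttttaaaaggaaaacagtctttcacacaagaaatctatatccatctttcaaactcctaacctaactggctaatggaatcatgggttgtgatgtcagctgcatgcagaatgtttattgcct
ACAAT was found once in Spata31 and in Tex36, at 2 places in Tex38, and in neither Spata20 nor Spata46. Of the 9 members called in the Sox30 knockout, 6 had an upstream sequence, and 5 of these held ACAAT (Spata31, Spata9, Tex36, Tex38 and Tex48). Of the 6 members whose effects differed, all had one and 2 held ACAAT (Spata45 and Tex33). The background for so short a word is high: 27.7% of all 32851 upstream sequences and 22 of the 57 of the members (38.6%) held it. GTTGCC stood in 8 members' sequences (14.0%, against 10.4% of all) and TGACGTCA in 0 (1.55% of all). A match describes letters in this window only, and no test was made.

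In TGdel testis only Spata25 of 54 members tested fell and 0 rose (1.05% of all 16011 genes fell and 0.2% rose). At an unadjusted p under 0.05, 23 members were lower and 1 higher, where 2476 of all genes passed in either direction. DESeq2 called 3 members lower and 0 higher, with 365 of all genes lower and 211 higher. Spata25 had 1 count in the 3 TGdel testes and 35 in the 2 wild-type testes, a ratio of 50.4 (8.46 to 2045; adjusted p = 0.0404); it overlaps Zswim1 on the other strand, so its counts are uncertain. The call was lost without TGdel testis 2, without TGdel testis 3 and without either wild-type testis. Of all genes, 145 were lower without TGdel 3 and 405 without TGdel 1, against 168 in the main fit. Counts of lower members were 4 without TGdel 3 and 11, Spata25 included, without TGdel 1. None was called without TGdel 2, wild type 1 or wild type 2, where 17, 8 and 21 were lower at an unadjusted p under 0.05.

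Many spermatid-high members had lower values in TGdel testes without passing the test. Spata20 was 10.3, 19.6 and 30.7 CPM in TGdel testes 1, 2 and 3, against 82.8 and 52.8 CPM in wild type (log2 -1.74 ± 0.35 SE, adjusted p = 0.0588). Tex36 was 0.903, 5.14 and 8.23 CPM in TGdel testes, against 16.8 and 12.4 CPM in wild type (log2 -1.61 ± 0.57 SE, adjusted p = 0.225). Spata31 was 0.361, 2.26 and 4.08 CPM in TGdel testes, against 11.6 and 6.22 CPM in wild type (log2 -1.98 ± 0.62 SE, adjusted p = 0.173). In each of the 3 genes every TGdel value was below both wild-type values, TGdel 1 was the lowest and TGdel 3 the highest. That order was common: of 29 spermatid-high members tested, 25 were lowest in TGdel 1 and 24 highest in TGdel 3. It was not counted over all genes of that stage class. In all, 28 of 54 members were below both wild-type testes in every TGdel testis and 7 were above, against 17.3% and 16.1% of all genes tested. Tex21 (-1.18 ± 0.27 SE, adjusted p = 0.086), Tex47 (-0.94 ± 0.18 SE, adjusted p = 0.0505) and Tex38 (-1.37 ± 0.32 SE, adjusted p = 0.0846) came near the threshold.

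No member listed as early was called in TGdel testes (median log2 0.06 over the 6). The 6 members whose effects differed between the Nkapl and Sox30 knockouts lay between a log2 of -1.78 and -1.18 in TGdel testes, and the 9 lost in both lay between -2.34 and -1.17, none of them called. TGdel 1 also stood apart in Rn45s, which took 0.497% of its counts, against 0.0598% to 0.0713% in the other 4 libraries of the set. Round spermatid markers summed to 664 to 865 CPM in TGdel testes and 822 to 1003 CPM in wild type. Their median log2 fold change was -1.44, with 0 of 18 called in either direction. Leydig cell markers spread from 165 to 501 CPM in TGdel testes, against 366 to 377 CPM in wild type. The part of these differences in the members' values was not tested.

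Sorted spermatids gave a different ranking. In Nkapl knockout spermatids 44 of the 65 members fell and 10 rose (31% and 29% of all 15805 genes tested), with a median log2 fold change of -0.38, against 0.03 over all genes. Only 13 of the falls reached a log2 size of 1, and the share of all genes that did was not counted. Both knockout libraries lay below both wild-type libraries in 45 members and above them in 14 (39.3% and 40.5% of all genes tested). The largest falls given next are those of members with a mean log2 CPM of 1 or more. Tex37 was 10.9 and 13.4 CPM in knockout spermatids, against 82.8 and 75.1 CPM in wild type (log2 -2.69 ± 0.09 SE, adjusted p = 4.58e-21). Spata31d1b was 24.8 and 25.4 CPM in knockout spermatids, against 162 and 149 CPM in wild type (log2 -2.63 ± 0.07 SE, adjusted p = 3.57e-23). Spata32 was 7.79 and 6.6 CPM in knockout spermatids, against 44.3 and 38.3 CPM in wild type (log2 -2.52 ± 0.10 SE, adjusted p = 1.55e-18). The groups were far apart in all 3 genes. Spata31d1a followed (-2.47). Tex50 was 5.84 and 5.28 CPM in knockout spermatids, against 28.4 and 24.7 CPM in wild type (log2 -2.25 ± 0.12 SE, adjusted p = 2.7e-16). Spata31d1c, at 65033058 to 65038004 on chromosome 13, was 8.94 and 11.1 CPM in knockout spermatids, against 45.8 and 41.3 CPM in wild type (log2 -2.12 ± 0.10 SE, adjusted p = 2.06e-17). Spata31d1a and Spata31d1b lie beside each other on chromosome 13 (59700083 to 59706587 and 59712284 to 59719289) and share 19.8% and 24.9% of their 50-base words, mainly with each other, so reads may be split between them; their neighbour Spata31d1d, at 59725925 to 59731752, shares 2.52% and fell by less (-0.89).

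Several members that were nearly lost from Nkapl knockout testis differed by a log2 of less than 1 in knockout spermatids, among them Spata19 (-0.87), Spata21 (-0.84) and Spata20 (-0.71). Spata45, with 0 counts in the knockout testes, was 115 and 104 CPM in knockout spermatids, against 121 and 127 CPM in wild type (log2 -0.18 ± 0.06 SE, adjusted p = 0.0106). Tex36 was 184 and 195 CPM in knockout spermatids, against 252 and 244 CPM in wild type (log2 -0.39 ± 0.05 SE, adjusted p = 1.52e-07). Tex24, which had fallen by a log2 of 4.50 in testis, rose to 78.7 and 79.8 CPM in knockout spermatids, against 65.4 and 70.1 CPM in wild type (log2 0.23 ± 0.06 SE, adjusted p = 0.00247). The groups did not overlap in any of the 3 genes, yet the differences were small. The 6 deepest falls of the knockout testis lay between a log2 of -0.64 (Spata31) and -0.18 (Spata45) in spermatids. Conversely, of those 6 largest falls in spermatids, 4 were too low in whole testis to be tested, Spata31d1a fell there by a log2 of 0.61 and Spata32 by 2.21. Of the 43 members that fell in knockout testis, 36 also fell in knockout spermatids, 2 rose (Spata1 and Tex24) and 5 did not pass. The same shares over all genes that fell in knockout testis were not counted. The testis and sorted libraries have no sample in common.

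**Figure D4:**
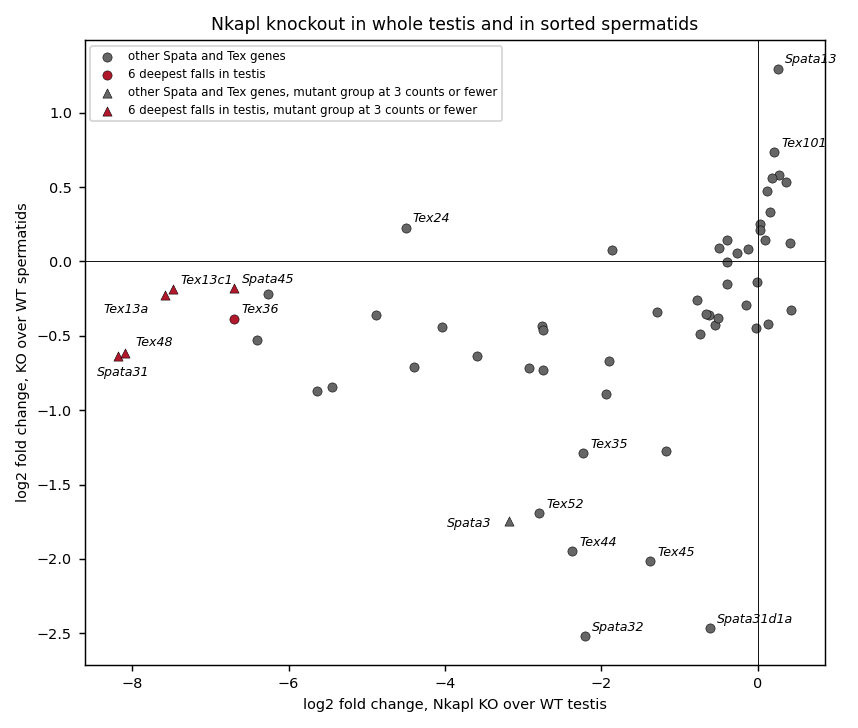
Log2 fold change of knockout over wild type for the Spata and Tex genes tested in both whole testis (horizontal axis) and sorted spermatids (vertical axis). The 6 deepest falls in testis (red) lie between -0.64 and -0.18 in spermatids, while Spata32, Spata31d1a, Tex45 and Tex44 are at or below -1.95 in spermatids; triangles mark members with 3 counts or fewer in the knockout testes, placed at their count ratio or bound.

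Of the 6 members listed as early 4 rose in knockout spermatids, and Tex14 and Spata22 did not pass. Tex101 was 28.1 and 34.7 CPM in knockout spermatids, against 20.1 and 17.6 CPM in wild type (log2 0.73 ± 0.09 SE, adjusted p = 8.75e-08). Tex11 was 12.3 and 11.1 CPM in knockout spermatids, against 6.66 and 8.9 CPM in wild type (log2 0.58 ± 0.13 SE, adjusted p = 0.000436). Neither pair of groups overlapped. Spata13 was 1.83 and 1.61 CPM in knockout spermatids, against 0.292 and 1.1 CPM in wild type (log2 1.29 ± 0.37 SE, adjusted p = 0.00367), where the wild-type libraries differed widely. Tex19.2 (0.56), Tex19.1 (0.53), Tex16 (0.47), Spata5 (0.25), Tex24, Tex15 (0.21) and Spata1 (0.14) were the other rises. The count of 10 rises became 2 without wild-type spermatid library 1 and 5 without knockout library 2. Round spermatid markers summed to 6563 and 6651 CPM in knockout spermatids and 13198 and 13513 CPM in wild type. Their median log2 fold change was -0.44, with 18 of 20 lower and 0 higher. Leydig cell markers were higher in 6 of 6 tested (20.6 and 21.9 CPM in knockout spermatids and 8.15 and 8.41 CPM in wild type), and macrophage markers in 5 of 6 (29.1 and 29.4 CPM in knockout spermatids and 14.8 and 15.4 CPM in wild type). Meiotic prophase markers were higher in 6 and lower in 3 of 12, and peritubular myoid markers, with 2 of 5 tested called lower, summed to 118.4 and 118.6 CPM in knockout spermatids and 279 and 272 CPM in wild type. The part of the mix of cells in the members' values was not tested.

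In spermatocytes the falls again outnumbered the rises. By label, 41 of 65 fell in the spermatocytes labelled knockout and 9 rose (25.7% and 33.6% of all 15805 genes tested), with a median log2 fold change of -0.38, against 0.07 over all genes. Both libraries labelled knockout lay below both labelled wild type in 42 members and above them in 12 (34.2% and 43.7% of all genes tested). Spata31d1b was 9.12 and 10.02 CPM in spermatocytes labelled knockout, against 53.1 and 51.1 CPM in those labelled wild type (log2 -2.44 ± 0.08 SE, adjusted p = 1.1e-19). Tex37 was 4.74 and 4.91 CPM in spermatocytes labelled knockout, against 23.2 and 22.4 CPM in those labelled wild type (log2 -2.24 ± 0.12 SE, adjusted p = 6.93e-16). The groups by label were far apart in both genes. Tex50 (-2.12), Spata31d1c (-1.99), Spata32 (-1.94) and Tex44 (-1.88) were the next largest falls at a mean log2 CPM of 1 or more. Tex13c3, below that level, had 3 counts in the spermatocytes labelled knockout and 32 in those labelled wild type, a ratio of 9.47 (2.96 to 48.3; adjusted p = 6.6e-05). Spata22 was 25.3 and 25.8 CPM in spermatocytes labelled knockout, against 16.2 and 14.7 CPM in those labelled wild type (log2 0.72 ± 0.09 SE, adjusted p = 4.56e-08), the largest rise, followed by Tex30 (0.68), Spata2 (0.58), Tex19.2 (0.49), Tex101 (0.45) and Spata5 (0.31). Round spermatid markers summed to 3060.5 and 3080.1 CPM in the spermatocytes labelled knockout and 4828 and 5088 CPM in those labelled wild type. Their median log2 fold change was -0.59, with 18 of 20 lower and 1 higher. Sertoli cell markers were lower in 5 of 10 (82.9 and 86.4 CPM in the libraries labelled knockout and 122 and 129.7 CPM in those labelled wild type), and peritubular myoid markers, with 1 of 5 tested called lower, summed to 39.7 and 43.0 CPM in those labelled knockout and 98.7 and 98.6 CPM in those labelled wild type. Leydig cell markers were higher in 4 of 6 tested, and meiotic prophase markers higher in 6 and lower in 2 of 12. The part of these shifts in the members' values was not tested. With the labels turned round, every one of these directions would turn round too.

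**Figure D5:**
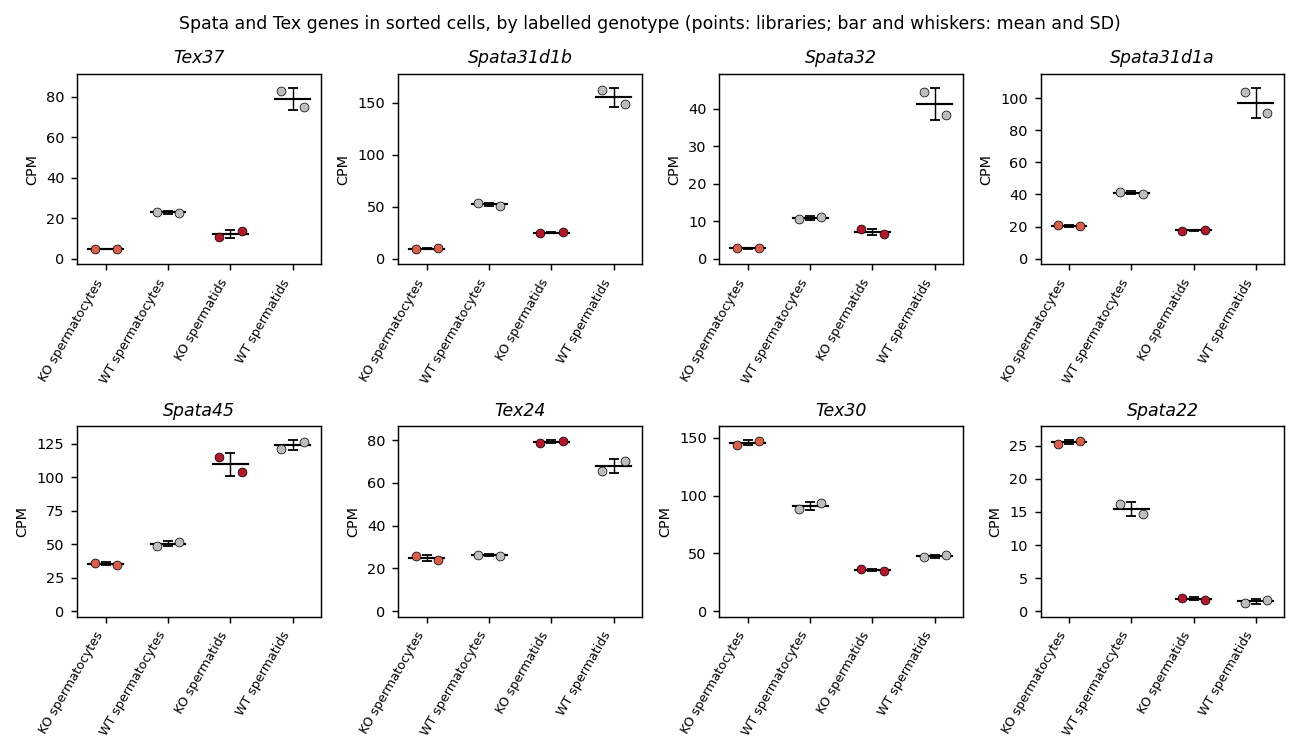
CPM of 8 Spata and Tex genes in every sorted library (points), with the mean and SD of each group (bar and whiskers), knockout left of wild type within each stage and genotypes as labelled. Spata31d1a was about as high in both stages labelled knockout and far higher in wild-type spermatids, Spata45 and Tex24 differed little between genotypes in spermatids, and Tex30 was higher in spermatocytes labelled knockout and lower in knockout spermatids.

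The knockout effect differed between the stages, spermatids minus spermatocytes, for 22 of the 65 members, 14 lower and 8 higher (25.5% of all genes passed, 16.4% lower and 9.02% higher). Spata31d1a was 17.5 and 17.7 CPM in knockout spermatids, against 104 and 90.4 CPM in wild type, and 20.7 and 20.2 CPM in spermatocytes labelled knockout, against 41.7 and 40.5 CPM in those labelled wild type (log2 difference of effects -1.46 ± 0.11 SE, adjusted p = 2e-10). It was also lower in knockout spermatids than in spermatocytes labelled knockout (log2 -0.22 ± 0.09 SE, adjusted p = 0.0341, a call lost with DESeq2, with RLE scaling and without any 1 of the 4 libraries labelled knockout). Tex30 was 36.0 and 35.0 CPM in knockout spermatids, against 46.6 and 48.6 CPM in wild type, and 144 and 147 CPM in spermatocytes labelled knockout, against 88.5 and 93.4 CPM in those labelled wild type (log2 difference -1.10 ± 0.09 SE, adjusted p = 2.11e-10). Tex9 (-0.72 ± 0.10 SE, adjusted p = 4.36e-06) and Spata4 (-0.27 ± 0.06 SE, adjusted p = 0.000954) also had a lower effect in spermatids, and Tex21 a higher one (0.43 ± 0.07 SE, adjusted p = 3.01e-05). Tex30 shares 13.5% of its 50-base words with Gm29247, which overlaps it on the same strand. Tex9 shares 29.6% of its 50-base words with other loci, chiefly Mns1. These counts, sizes and signs rest on the spermatocyte labels. With those labels turned round, a setting added after the Nkapl level was seen, 55 members passed, 42 lower and 13 higher (31.2% and 36.8% of all genes). The log2 difference was then -3.47 for Spata31d1a, 0.26 for Tex30, 0.27 for Spata4 and -1.15 for Tex21, and for Tex9 it was -0.18 and did not pass, so the sign held for Spata31d1a and Tex9 and turned for the other 3. The count of 22 fell to between 9 and 13 without wild-type spermatid library 1 or without any 1 of the 4 libraries labelled knockout, and was 12 with DESeq2.

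By position the members are scattered, with 7 on the X chromosome. Of these, Tex13a and Tex13c1 fell in testis in the Nkapl and in the Sox30 knockout, Tex11 and Tex13b rose in the Nkapl knockout testis, Tex16 did not pass there, and Tex28 and Tex13c3 were too low to test in the Nkapl set. In knockout spermatids Tex13c3 was 0.229 and 0.287 CPM, against 2.86 and 2.26 CPM in wild type (log2 -3.28 ± 0.37 SE, adjusted p = 1.09e-08); it was picked out after its values were seen. In the annotation 27 of the 65 members overlap another gene and 9 share over 10% of their 50-base words with another gene. Whether counting used strand is not given in the sources used here, and the counts of those members are uncertain.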

How the data were processed

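The deposited files hold raw counts per gene symbol, one value for each library. Per the submitters' processing notes, the build was mm10 and HISAT2 2.1.0, HTSeq and DESeq2 were used, with no roles stated; per the labels' protocols, libraries came from a stranded total RNA kit. The annotation is not given in the sources used here; nor is the strand setting. 3 pairs of identical columns were counted once, which left 23 libraries from 26 files. Entries that name no gene, 23.2% to 24.6% of all counts in the sorted libraries labelled knockout and 18.8% to 20.0% in those labelled wild type, stayed out of totals and tests.

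Genes were filtered by group, scaled by TMM and tested by the quasi-likelihood method of edgeR 4.0.16, with p-values adjusted by Benjamini-Hochberg over all genes of a fit (threshold 0.05), with one fit per testis set, one for the 4 sorted groups and one for the Nkapl and Sox30 sets together. SEs are the log2 fold change over the square root of F. Alternatives were RLE scaling, DESeq2 1.42.0, no filter, a replicate block, leaving out each library, grouping by file record, dropping libraries on which heading and record differ in group, one fit of all testis libraries, and, chosen after seeing the data, each sorted stage alone and the spermatocyte labels turned round. The scripts were tested on simulated data.

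Members described in the text are those of the 3 role lists, in each comparison the called members with the largest falls and rises, at most 6 each way, from a mean log2 CPM of 1 upwards and with no overlap between groups, and at most 5 by smallest p for a difference of effects. Others, such as Tex13c3, Spata31d1d, Spata25, Tex38 and the remaining called members, were added after their values were seen. The members, role lists and marker lists were chosen with earlier results of these data known. Same-numbered libraries were compared by their deviations from group means, and the numbers pair no samples. The 2 symbols left out are not reported here.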

Additional observations from a re-analysis of the deposited data

Results flagged for a closer look

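The knockout effect differed between spermatids and spermatocytes, by a test of the difference itself, for 22 of 65 members, against 25.5% of all genes tested. Of the members 21.5% were lower and 12.3% higher, near the 16.4% and 9.02% of all genes, so the count does not set the members apart. With DESeq2 it was 12, where 1128 of all genes were lower and 959 higher. Among those named, the log2 difference of effects, spermatids minus spermatocytes, was -1.46 for Spata31d1a, -1.10 for Tex30, -0.72 for Tex9, -0.27 for Spata4 and 0.43 for Tex21. Tex30 and Tex9 were higher in the spermatocytes labelled knockout and lower in knockout spermatids, each relative to wild type. Nkapl went against the labels in the spermatocytes; with those labels turned round the values were -3.47 for Spata31d1a, 0.26 for Tex30, -0.18 for Tex9 (adjusted p = 0.102), 0.27 for Spata4 and -1.15 for Tex21.

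The effect in testis differed between the Nkapl knockout and the Sox30 knockout for 6 of 63 members, against 2.8% of all genes tested. Leaving out single libraries gave 0 to 17, with 0 to 3 for 7 of the 10 libraries. The log2 difference, Nkapl minus Sox30, was -4.27 for Spata20, -4.70 for Tex21, -4.58 for Spata21, -5.48 for Tex33 and -5.25 for Spata46, and Spata45, with 0 counts in the Nkapl knockout, had an adjusted p of 0.0252. The part of the Sox30-set spread, with 1 knockout testis lower than the other in most late members, was not tested.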

How the results depend on the processing

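Grouping by file record ended every call in the testis sets: 0 members were lower and 0 higher in the Nkapl set, 0 lower in the Sox30 and TGdel sets, and 0 differed between the Nkapl and Sox30 knockouts. Of all genes, too, 0 were called in any of these. With only the libraries whose heading and record name the same group, 15 were lower in the Sox30 set, 12 in the TGdel set, and 2 differed between the knockouts. DESeq2 gave 5 higher in the Nkapl set, 15 lower in the Sox30 set, 3 lower in the TGdel set, 12 with an effect that differed between the stages and 11 between the knockouts. Of all genes, DESeq2 called 2051 higher in the Nkapl set, 628 lower in the Sox30 set and 365 lower in the TGdel set. The main fits called 3013, 342 and 168. Without a filter 0 were lower in the TGdel set and 11 differed between the stages. With all testis libraries in one fit, 2 were higher in the Nkapl set, 16 lower in the Sox30 set and 2 lower in the TGdel set. Of all genes, that fit called 833, 713 and 220 in these directions. Leaving out 1 library at a time gave 5 to 9 higher in the Nkapl set, 0 to 15 lower in the Sox30 set, 0 to 11 lower in the TGdel set, 2 to 11 higher in knockout spermatids, 9 to 23 for the difference between the stages and 0 to 17 for that between the knockouts. Same-numbered libraries share only a number; with it as a replicate block 33 members were lower in the Sox30 set, 0 in the TGdel set, and 12 differed between the knockouts, and the correlations of deviations were 0.04 and 0.02 in the Nkapl set, 0.05 and 0.36 in the Sox30 set, -0.06 and -0.06 in the TGdel set, 0.04 in spermatocytes and -0.01 in spermatids. With the replicate block, 1370 of all genes were lower in the Sox30 set, against 342 without it. The counts of 43 lower in the Nkapl set, 41 lower and 9 higher in spermatocytes and 44 lower in spermatids stayed within 1.5 times under every alternative run, except by file record for the Nkapl set. With the spermatocyte labels turned round, added after seeing the data, 55 members had an effect that differed between the stages, and the difference turned in sign for Spata4 (0.27), Tex21 (-1.15) and Tex30 (0.26). For the members named, 1704 alternative values kept direction and side of the threshold, 130 lost the call, 35 gained it and those 3 turned round. The causes were not tested. Members with few counts are limited by depth to ratios with wide intervals.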
